A study of Mus musculus with 6 samples.

Results

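The genes described here are 32 targets of the transcription factor ATF4 and cytosolic tRNA synthetases, chosen by name from the 24413 genes of the deposited expression table, and all 32 were present. They were measured by bulk RNA-seq in cells sorted from mouse Achilles tendon by the tdT reporter of the Tppp3 lineage (genotype Tppp3ECE/+;R26RtdT-CreERT2;Scx-GFP, 3 male mice aged 12 weeks). The control group was kept for 24 h in medium with 1% FBS, and the conditioned group for 24 h in DRG conditioned medium, which had been left on cultured lumbar ganglion cells of male C57BL/6J mice of the same age (DRG, dorsal root ganglia, hold the cell bodies of sensory neurons). The ganglion cultures had received the anti-mitotic reagents 5-fluoro-2-deoxyuridine and uridine at 20 µM each before the change to the medium with 1% FBS that was collected, filtered and frozen. Each group had 3 libraries, called biological replicates by the submitters. No library is tied to an animal in the labels. The p-values therefore set the difference between groups only against the spread of libraries within a group, which may in part be technical. The reporter marks cells in which the Tppp3-driven recombinase was active, not cells that still express Tppp3.

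ATF4 is the main effector of the integrated stress response. When amino acids run short, misfolded protein accumulates in the endoplasmic reticulum, haem is lacking or double-stranded RNA is sensed, a dedicated kinase phosphorylates the initiation factor eIF2, general translation slows, and the Atf4 mRNA is translated more efficiently through its upstream reading frames. ATF4 then activates genes for amino acid synthesis and import, for charging of tRNAs and for feedback on the response. Collagen-producing fibroblasts use the serine, glycine and proline routes of this programme heavily, since collagen is rich in glycine and proline. The level of the Atf4 mRNA therefore does not report ATF4 activity by itself, and the levels of its target mRNAs are the usual readout.

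No member of the ATF4 programme passed as higher in conditioned medium. Of the 28 members with a mean of at least 1 FPKM (fragments per kilobase of gene, scaled to library size) over the 6 libraries, 0 were higher and 1 was lower at an adjusted p below 0.05 in limma, with 27 not passing. The call rate among members was 3.57%, against 6.53% of all 11678 genes tested (4.04% higher and 2.49% lower). At an unadjusted p below 0.05 there were 4 members of 28 (Pycr1, Cebpg, Mthfd2 and Slc7a1), against 19.6% of all genes tested. By voom on whole fragments, 1 member was higher (Cebpg) and 1 lower (Pycr1), against 5.6% and 4.07% of all genes tested. The median log2 fold change (conditioned minus control, on log2(FPKM + 1)) was 0.02 over the members and 0.01 over all genes tested. Fold changes lay above 0 for 16 members and below 0 for 12. The groups did not overlap for 3 members with higher and 4 with lower conditioned values, against 14.3% and 11.6% of all genes tested.

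The 1 member called was lower in conditioned medium. Pycr1, the mitochondrial enzyme that completes proline synthesis (chr11:120635712-120643769, minus strand, mm10), had 7.48, 7.22 and 8.08 FPKM in control replicates 1, 2 and 3 and 5.37, 6.08 and 6.19 FPKM in conditioned replicates 1, 2 and 3. All conditioned libraries were below all control libraries. The mean fell from 7.59 ± 0.440 to 5.88 ± 0.443 FPKM (SD, n = 3), a log2 fold change of -0.32 ± 0.07 SE with a 95% interval of -0.47 to -0.17 (limma adjusted p = 0.0258). The values rest on 2070 control and 1482 conditioned fragments. The fold change was between -0.37 and -0.27 in all 15 alternative settings, while the adjusted p ranged from 0.00391 to 0.0837 and passed in 8 of them. Among the 6 fits without 1 library, the call was kept only without conditioned replicate 3 (adjusted p = 0.0432), and the adjusted p was 0.0507, 0.0532 and 0.0743 without control replicates 1, 2 and 3, and 0.0837 and 0.0724 without conditioned replicates 1 and 2.

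**Figure D1:**
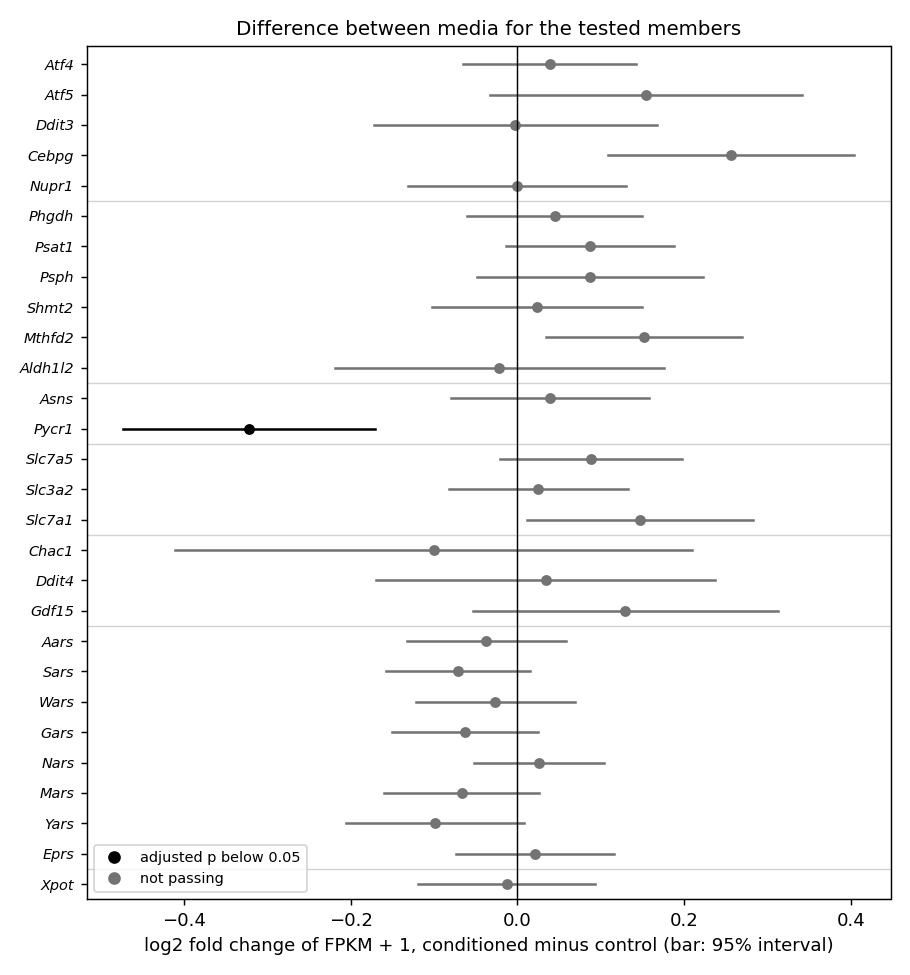
Log2 fold change on log2(FPKM + 1), conditioned minus control, for the 28 tested members grouped by role (points, with 95% intervals of limma as bars). Pycr1 (black) is the only member past the adjusted threshold, and 24 of the 28 intervals span 0.

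The sequences below show what some members share apart from their names, a match to the C/EBP-ATF response element, through which ATF4 and its C/EBP partners bind DNA. RefSeq promoter windows (GRCm38.p6, 250 bases before to 50 after each annotated start) matched 26 of the 32 members by symbol. The core TGATGNAA was searched on both strands. It was found for 9 of these 26 members (34.6%), against 4.51% of all genes with a window. Counted by window, it was in 29.0% of member windows and 3.97% of all windows of this length. The members were assembled as known ATF4 targets, so this share is not independent of how they were chosen. Stretches of 30 bases are shown on the strand of each gene, with the match in capitals. A match on the opposite strand reads TTNCATCA.
Pycr1: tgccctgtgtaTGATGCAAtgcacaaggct
Asns: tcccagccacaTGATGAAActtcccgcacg
Chac1: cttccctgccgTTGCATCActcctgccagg
Nupr1: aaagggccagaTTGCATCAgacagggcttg
Gars: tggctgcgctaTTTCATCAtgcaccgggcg

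These stretches lie at chr11:120643833-120643862 for Pycr1 (minus strand), chr6:7693214-7693243 for Asns (minus), chr2:119351038-119351067 for Chac1 (plus), chr7:126625562-126625591 for Nupr1 (minus) and chr6:55037960-55037989 for Gars (plus). Those of Pycr1, Chac1 and Gars are outside the exons of protein-coding transcripts in GENCODE M21, and those of Asns and Nupr1 overlap an untranslated exon. The first base of the match, counted from the RefSeq start (-1 is the base before it), is at -103 in Pycr1, -23 in Asns, -193 in Chac1, -110 in Nupr1 and -30 in Gars. Trib3, Vldlr and Yars also held the core, with its first base at 15, -200 and 4 (1 is the start). The Yars stretch overlaps a coding exon and that of Trib3 an untranslated exon. Among the 7 tested members with the core, 1 passed (Pycr1), 6 had a fold change below 0, and the median log2 fold change was -0.06. Of these 7, only Pycr1 had an unadjusted p below 0.05 in limma. Nupr1 counts as below 0 at a log2 fold change of -0.0003. Among the 16 tested members with a window and no core, 0 passed, 3 had a fold change below 0, and the median was 0.04. At an unadjusted p below 0.05 in limma there were 3 of the 16. Of all 11678 genes tested, 6.53% passed, 19.6% had an unadjusted p below 0.05, 5604 had a fold change below 0, and the median was 0.01. Differences between members with and without the core, in counts or medians, were not tested. A match is a description of the letters and does not show that a factor binds there.

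The transcription factors of the response gave 0 calls among 5 tested members, with a median log2 fold change of 0.04. Atf4 (chr15:80255184-80257541, plus strand) had the highest mean over all 6 libraries of the members (67.4 FPKM, against 66.5 FPKM for Gars, which was the higher of the pair in each control library). It had 63.7, 66.1 and 69.8 FPKM in control replicates 1, 2 and 3 and 69.5, 70.0 and 65.5 FPKM in conditioned replicates 1, 2 and 3. The groups overlapped, and the log2 fold change of 0.04 ± 0.04 SE had a 95% interval of -0.07 to 0.14 (limma adjusted p = 0.707). A change of the Atf4 mRNA outside 0.956-fold to 1.1-fold therefore lay outside the interval. Ddit3, which encodes the pro-apoptotic factor CHOP, had 7.84, 9.08 and 9.52 FPKM in the controls, and 8.24, 9.15 and 8.95 FPKM with conditioned medium. Its conditioned values lay within the control range (log2 fold change -0.0024, 95% interval -0.17 to 0.17, limma adjusted p = 0.994). Ddit3 and Mars, which encodes the methionine synthetase, share 68 bases of exon on opposite strands, and the strand setting of the authors' counting is not given in the sources used here.

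Cebpg, a C/EBP protein that pairs with ATF4 (chr7:35046422-35056573, minus strand), came closest to a higher call. It had 4.82, 5.65 and 5.50 FPKM in control replicates 1, 2 and 3 and 6.53, 6.78 and 6.32 FPKM in conditioned replicates 1, 2 and 3. All conditioned libraries were above all control libraries. The means were 5.32 ± 0.444 and 6.54 ± 0.231 FPKM (SD, n = 3), and the log2 fold change of 0.26 ± 0.06 SE did not pass (95% interval 0.11 to 0.40, limma adjusted p = 0.0563). It passed in 2 of the 15 alternatives, by voom on whole fragments (0.29, adjusted p = 0.0144) and in a fit restricted to 7088 genes at 5 FPKM or more (adjusted p = 0.0391, with 6.6% of genes called higher). Over all alternatives the adjusted p of Cebpg ranged from 0.0144 to 0.193.

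Atf5, a relative of ATF4 that is also controlled through upstream reading frames, had 37.1 ± 2.96 FPKM in the controls, and 41.5 ± 3.99 FPKM with conditioned medium (SD, n = 3, adjusted p = 0.348 in limma). Conditioned replicate 3, with 45.8 FPKM, was the highest of the 6 libraries, and the lowest conditioned library (37.9 FPKM) lay below the highest control (40.5 FPKM). Nupr1, a stress-induced chromatin-associated protein, had 15.3 FPKM in both groups (SD 1.04 and 0.591, n = 3) and a log2 fold change with a 95% interval of -0.13 to 0.13. Trib3, a pseudokinase that feeds back on ATF4 and AKT, was below the level filter with 0.466, 0.664 and 0.677 FPKM in the controls, and 0.649, 0.475 and 0.541 FPKM with conditioned medium. These Trib3 values rest on only 19 to 37 fragments per library, and both groups cover much the same range.

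**Figure D2:**
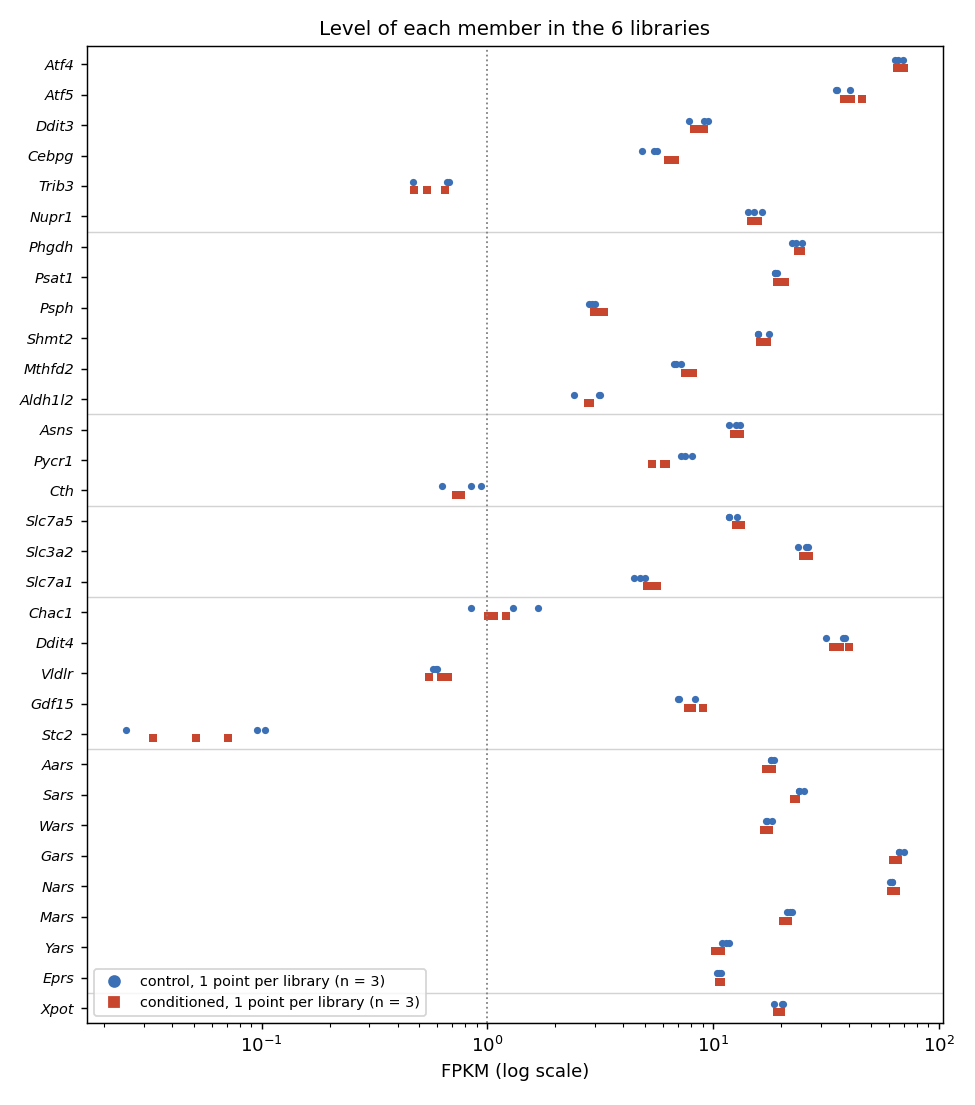
FPKM of the 32 members in each library on a log axis, grouped by role (blue circles, 3 control libraries; red squares, 3 conditioned libraries; dotted line, 1 FPKM). Levels span from Stc2, with a mean of 0.0632 FPKM, to Atf4, with 67.4 FPKM, and the libraries of both groups overlap for most genes.

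Enzymes of serine synthesis and mitochondrial one-carbon metabolism gave 0 calls among 6 tested members, with fold changes above 0 for 5 of them and a median log2 fold change of 0.07. Phgdh, the first enzyme of serine synthesis, had 22.4, 23.3 and 24.7 FPKM in the controls, and 23.8, 24.6 and 24.2 FPKM with conditioned medium. The conditioned values lay inside the control range, and the 95% interval of the log2 fold change ran from -0.06 to 0.15 (limma adjusted p = 0.654). Annotated transcripts include processed copies of Phgdh at up to 98.7% identity (Gm7901), so fragments may be split between them and the level of Phgdh is uncertain. Psat1, the transaminase of the next step, had 18.9, 18.8 and 19.2 FPKM in the controls, and 20.6, 19.2 and 20.9 FPKM with conditioned medium. Conditioned replicate 2 was at the level of control replicate 3, and the log2 fold change was 0.09 ± 0.04 SE (limma adjusted p = 0.323).

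Mthfd2, the mitochondrial methylenetetrahydrofolate dehydrogenase, had 6.85, 7.22 and 6.71 FPKM in control replicates 1, 2 and 3 and 7.55, 8.14 and 7.73 FPKM in conditioned replicates 1, 2 and 3. The groups did not overlap. The log2 fold change of 0.15 ± 0.05 SE had a 95% interval of 0.03 to 0.27 and did not pass (limma adjusted p = 0.139, and 0.112 to 0.361 over the alternatives). Shmt2, which splits serine into glycine and a one-carbon unit in mitochondria, had 16.4 ± 1.07 and 16.7 ± 0.609 FPKM in control and conditioned medium (SD, n = 3). Aldh1l2, which oxidises formyl-tetrahydrofolate in mitochondria, had 2.90 ± 0.425 and 2.83 ± 0.0458 FPKM, and shares 1056 exon bases on the opposite strand with D10Wsu102e, a gene at 0.274 FPKM. Psph, the last enzyme of serine synthesis, had 2.91 ± 0.0848 and 3.15 ± 0.161 FPKM, and shares 452 exon bases on the opposite strand with Cct6a, a gene at 40.3 FPKM, so the value of Psph is uncertain.

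Asns, asparagine synthetase (chr6:7675169-7693254, minus strand), is among the most responsive genes to amino acid shortage. It had 13.1, 11.8 and 12.7 FPKM in control replicates 1, 2 and 3 and 12.4, 13.1 and 13.2 FPKM in conditioned replicates 1, 2 and 3. The groups overlapped, and the log2 fold change of 0.04 ± 0.05 SE had a 95% interval of -0.08 to 0.16 (limma adjusted p = 0.743). Changes of Asns above 1.12-fold lay outside that interval. Cth, which makes cysteine from cystathionine, was below the level filter with 0.806 ± 0.161 FPKM in the controls, and 0.743 ± 0.0192 FPKM with conditioned medium (SD, n = 3). Of this group of 3 amino acid enzymes, Pycr1 was called as lower, in the reported fit and in 8 of the 15 alternatives. Asns was not called, and Cth was too low to be tested in the reported fit.

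Amino acid transporters had fold changes above 0 for all 3 members, with 0 passing. Slc7a1, a carrier of arginine and lysine, had 4.98, 4.74 and 4.48 FPKM in control replicates 1, 2 and 3 and 5.32, 5.09 and 5.63 FPKM in conditioned replicates 1, 2 and 3. The lowest conditioned library was just above the highest control, and the log2 fold change of 0.15 ± 0.06 SE did not pass (95% interval 0.01 to 0.28, limma adjusted p = 0.218). Slc7a5, the large neutral amino acid transporter, had 12.1 ± 0.552 and 12.9 ± 0.349 FPKM, and Slc3a2, the heavy chain it pairs with, had 25.3 ± 1.22 and 25.7 ± 0.773 FPKM (SD, n = 3). The groups overlapped for both chains.

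**Figure D3:**
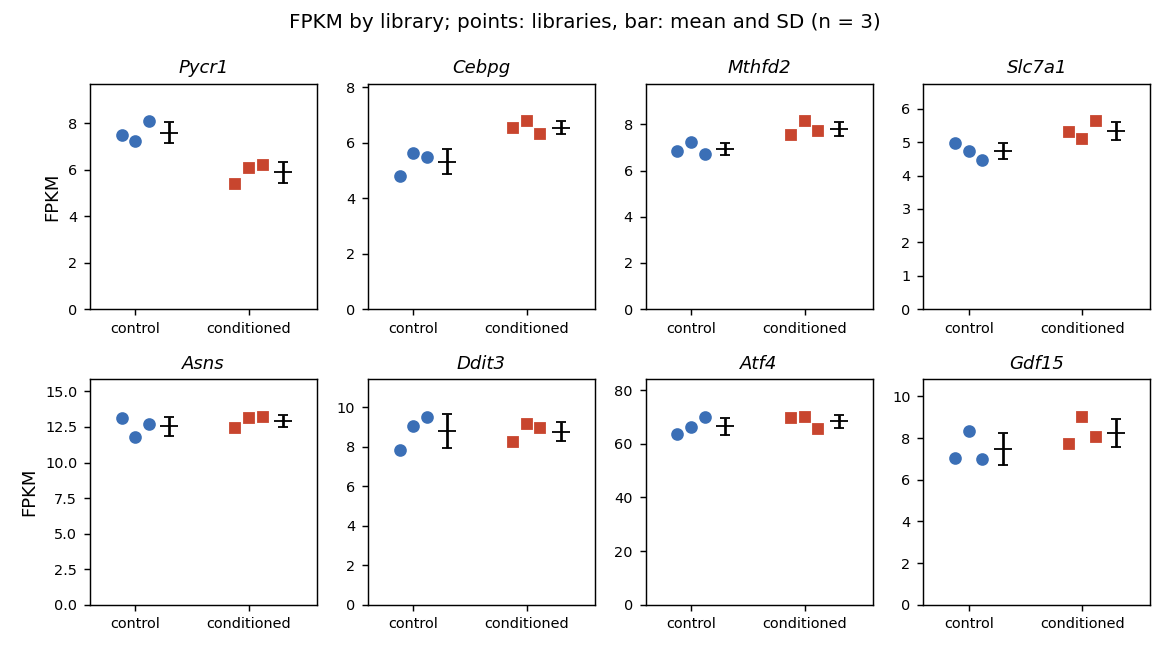
FPKM by library for 8 members (blue circles, control; red squares, conditioned; black bars, mean and SD, n = 3; axes start at 0). Pycr1 separates downward and Cebpg, Mthfd2 and Slc7a1 upward without overlap, while Asns, Ddit3, Atf4 and Gdf15 overlap between the media.

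Stress effectors and secreted factors gave 0 calls among 3 tested members. Chac1, which degrades glutathione and is a sharp marker of ATF4 activity, had 0.842, 1.68 and 1.30 FPKM in the controls, and 1.21, 1.07 and 1.01 FPKM with conditioned medium. The control libraries spread around the conditioned ones. With 32 to 72 fragments per library, Chac1 had the widest 95% interval of the tested members (log2 fold change -0.41 to 0.21, limma adjusted p = 0.75). Gdf15, a secreted stress hormone, had 7.04, 8.36 and 7.01 FPKM in the controls, and 7.72, 9.01 and 8.05 FPKM with conditioned medium. Control replicate 2 lay above 2 of the conditioned libraries, and the log2 fold change of 0.13 ± 0.08 SE did not pass (limma adjusted p = 0.428).

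Ddit4, an inhibitor of mTORC1 signalling also known as REDD1, had 36.0 ± 3.67 and 36.8 ± 3.02 FPKM in control and conditioned medium (SD, n = 3). Vldlr, a lipoprotein receptor, had 0.587 ± 0.0136 and 0.615 ± 0.0584 FPKM, and Stc2, a secreted glycoprotein, had 0.0746 ± 0.0432 and 0.0518 ± 0.0191 FPKM. Both lay below the level filter. The Stc2 values come from 27 fragments over the 3 control and 17 over the 3 conditioned libraries, so that a difference was not detectable at this depth. With the filter removed, 24413 genes were tested (2.02% called), and Trib3, Cth, Vldlr and Stc2 had limma adjusted p-values of 0.881, 0.86, 0.919 and 0.791.

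The 8 cytosolic tRNA synthetases of the list, which load amino acids onto their tRNAs, gave 0 calls, with most fold changes below 0. Fold changes lay below 0 for 6 of them, and the median log2 fold change was -0.05. Summed over the 8 genes, control replicates 1, 2 and 3 had 233, 231 and 237 FPKM, and conditioned replicates 1, 2 and 3 had 230, 227 and 228 FPKM. Each conditioned sum lay below each control sum. Such a sum is weighted to the most abundant genes, here Gars and Nars. Over all 20 cytosolic synthetases the sums overlapped, with 454 to 467 FPKM in the controls and 455 to 466 FPKM with conditioned medium. For the 12 outside the list they were 223 to 230 FPKM and 228 to 237 FPKM. Groups did not overlap for 3 of the 8, all lower in conditioned medium, where 11.6% of all genes tested were lower without overlap. Of these, Yars (tyrosine) had 11.4 ± 0.406 and 10.6 ± 0.316 FPKM (SD, n = 3, log2 fold change -0.10, limma adjusted p = 0.289). Sars (serine) had 24.4 ± 0.652 and 23.2 ± 0.272 FPKM (log2 fold change -0.07, limma adjusted p = 0.35), and Gars (glycine) had 67.9 ± 2.02 and 65.0 ± 1.79 FPKM (log2 fold change -0.06, limma adjusted p = 0.419).

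Wars, the tryptophan synthetase, is also known as an interferon-induced gene. It had 18.2, 17.4 and 17.2 FPKM in the controls, and 17.7, 17.3 and 16.9 FPKM with conditioned medium. The groups overlapped, and a Wars change above 1.05-fold lay outside the 95% interval (lower bound 0.919-fold, limma adjusted p = 0.794). Nars (asparagine) had 61.7 ± 0.506 and 62.8 ± 1.63 FPKM and the smallest standard error of the tested members (0.03). Aars (alanine) had 18.2 ± 0.405 and 17.8 ± 0.544 FPKM (SD, n = 3), and shares 1326 exon bases on the same strand with Exosc6, so its value is uncertain. Mars (methionine) had 21.8 ± 0.530 and 20.8 ± 0.582 FPKM, and Eprs (glutamate and proline) 10.6 ± 0.190 and 10.8 ± 0.163 FPKM (SD, n = 3). Xpot, the nuclear export receptor for tRNAs, had 19.8 ± 0.95 and 19.6 ± 0.442 FPKM, and has an annotated copy at 96% identity (Gm7389).

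Cytosolic synthetases outside the list had fold changes mostly above 0. Of the remaining 12 cytosolic synthetases, 0 passed in limma and 2 had an unadjusted p below 0.05, against 6.53% and 19.6% of all genes tested. Among these 12, 9 had fold changes above 0, and the median log2 fold change was 0.05. Kars (lysine) had the highest value of these at 0.11 ± 0.04 SE (25.5, 25.6 and 26.9 FPKM in the controls, and 28.4, 28.0 and 28.2 FPKM with conditioned medium, limma adjusted p = 0.135). Over all 20 cytosolic synthetases, 11 fold changes were above 0 and 9 below, with a median of 0.02. Of 16 tested mitochondrial synthetases, which serve translation of the mitochondrial genome, 0 passed in limma and 0 had an unadjusted p below 0.05, with a median of 0.02. In both of these classes 0 passed in each of the 15 alternatives, voom included. The difference between these classes was not tested.

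**Figure D4:**
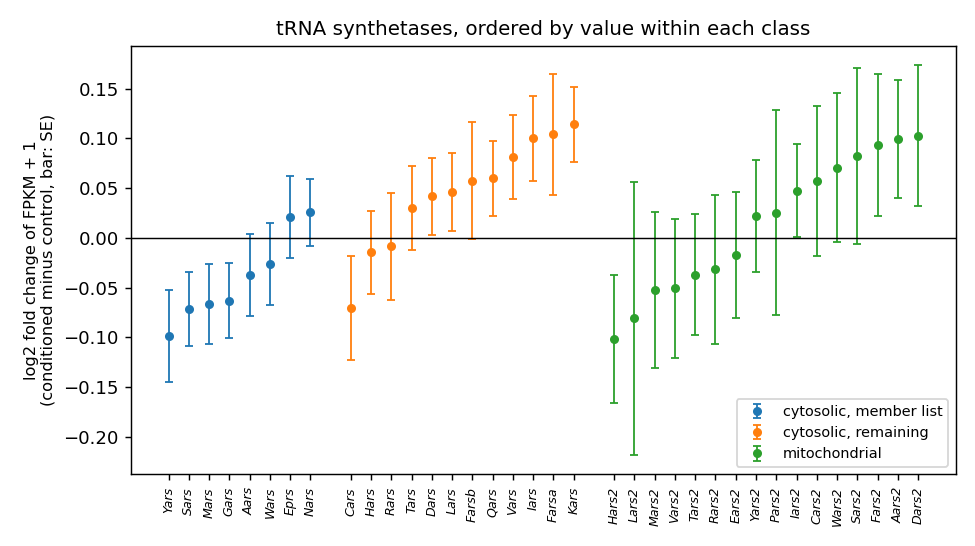
Log2 fold change on log2(FPKM + 1), conditioned minus control, with its SE, for 8 cytosolic tRNA synthetases of the member list, the 12 remaining cytosolic ones and 16 mitochondrial ones, ordered by value within each class. All values lie between -0.10 and 0.11, and 0 passed the adjusted threshold.

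Upstream of ATF4, 1 of 14 genes for eIF2 kinases, eIF2, its exchange factor eIF2B and its phosphatase passed, and it was higher. That is 7.14% called, against 6.53% of all genes tested. Eif2ak2, the kinase PKR that senses double-stranded RNA and is itself interferon-induced, had 16.8, 15.9 and 15.2 FPKM in control replicates 1, 2 and 3 and 25.4, 26.2 and 25.3 FPKM in conditioned replicates 1, 2 and 3. The groups were far apart, and the rise of 0.66 ± 0.05 SE on the log2 scale (limma adjusted p = 0.000104) passed in all 15 alternatives. Eif2ak3, the endoplasmic reticulum kinase PERK, had 10.7 ± 0.340 and 9.56 ± 0.50 FPKM without passing (SD, n = 3, limma adjusted p = 0.152). Eif2ak4, the kinase GCN2 that senses uncharged tRNA, had 4.59 ± 0.325 and 4.52 ± 0.190 FPKM, and Eif2ak1, the haem-regulated kinase, had 8.55 ± 0.381 and 8.45 ± 0.328 FPKM. Without control replicate 1 the count was 2, since Ppp1r15a, a regulatory subunit of the eIF2 phosphatase, was then also called, as lower (limma adjusted p = 0.0406). Kinase mRNA levels do not measure phosphorylation of eIF2, which was not assayed here.

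Among 20 tested genes of 25 other ATF4-linked genes, 0 were higher and 1 was lower in limma (5% called, against 6.53% of all genes tested). At an unadjusted p below 0.05 there were 4 of the 20, against 19.6% of all genes tested. Their median log2 fold change over the 20 was -0.03. The lists overlap, since Tars, Iars, Lars and Cars are also among the remaining cytosolic synthetases above, and Ppp1r15a among the eIF2 genes. Iars is counted at an unadjusted p below 0.05 in limma in both lists that hold it. Sesn2, a leucine sensor that restrains mTORC1 and is also a p53 target, had 27.2, 29.7 and 28.0 FPKM in the controls, and 24.8, 24.5 and 23.6 FPKM with conditioned medium. The groups did not overlap, and the log2 fold change was -0.21 ± 0.04 SE (limma adjusted p = 0.0284). It passed in 7 of the 15 alternatives, with adjusted p up to 0.103, and among fits without 1 library only without control replicate 1 (0.023). Without control replicate 1 the count for this list was 4, through Cebpb, Bbc3 and Ppp1r15a besides Sesn2. Cebpb, a C/EBP factor with many inducers, had 32.9, 44.6 and 44.4 FPKM in the controls, and 61.0, 52.9 and 56.1 FPKM with conditioned medium (log2 fold change 0.48 ± 0.13 SE, limma adjusted p = 0.107, and 0.0167 without control replicate 1, the lowest library). Slc7a11, the cystine-glutamate exchanger, was near the limit of detection with 25 control and 57 conditioned fragments over 3 libraries each, and Atf3 had 50 and 27.

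The intervals of the tested members were narrow. The median SE of the log2 fold change was 0.05 over the 28 tested members and 0.06 over all genes tested. The 95% interval lay within 1.2-fold in either direction for 21 of the 28, within 1.5-fold for all 28 and within 1.1-fold for 7. Differences larger than 1.5-fold on the log2(FPKM + 1) scale were thus outside the interval of each tested member. That scale understates fold changes of low genes, so in FPKM the bound is looser for a low member such as Chac1 (mean 1.19 FPKM). The 1.5-fold bound does not cover Trib3, Cth, Vldlr and Stc2, which were not tested.

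The tested members were also compared between libraries of a group. The deviation of each tested member from its group mean was taken on the log2(FPKM + 1) scale, and its median over members lay between -0.02 and 0.02 in the 6 libraries. Control replicate 1 had the lowest values, with 10 of the 28 members above the group mean, against 50% of all genes tested in that library. Among the 20 members other than synthetases, 5 were above the group mean in control replicate 1, with a median deviation of -0.05, and 13 in control replicate 3. The synthetases did not share this, with 5 of 8 above the group mean in control replicate 1 and a median deviation of 0.01. The summed level of all 24 members other than synthetases, untested ones included, was 320, 335 and 346 FPKM in control replicates 1, 2 and 3 and 349, 345 and 344 FPKM in conditioned replicates 1, 2 and 3. The conditioned libraries were close to each other. Control replicate 3 lay within their range, and control replicates 1 and 2 lay below it. The summed level is weighted to the most abundant of these genes, here Atf4, Atf5 and Ddit4. The median log2 fold change over the members was 0.01 without control replicate 1 and 0.05 without control replicate 3, the extremes of the 6 fits that left out 1 library.

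Libraries held 18599818 to 25826156 fragments in the table. All 8 tendon fibroblast markers were in the table, with a summed level of 4520 to 4640 FPKM in the controls and 3570 to 3670 FPKM with conditioned medium, and Tppp3 itself had 0.724 to 1.12 FPKM over the 6 libraries. Of the 7 tested, 4 were lower in conditioned medium, as Pycr1 was, and 0 higher in limma (57.1% called, against 6.53% of all genes tested). The log2 fold change was -0.33 ± 0.03 SE for Col1a1 and -0.36 ± 0.03 SE for Col1a2, the chains of type I collagen (limma adjusted p = 0.000312 and 0.000476), and -0.46 ± 0.04 SE for the collagen-binding proteoglycan Fmod (adjusted p = 0.000345), and these 3 passed in all 15 alternatives. Tnmd, a membrane protein of tendon cells, had 22.0 ± 0.85 and 16.3 ± 1.86 FPKM (SD, n = 3, log2 fold change -0.41, limma adjusted p = 0.0158). Its call was lost without control replicate 1 or 3 (0.052 and 0.0648) and without conditioned replicate 1 or 3 (0.0579 and 0.0581). Mkx, which was also tested, had 1.38 ± 0.113 and 1.39 ± 0.0762 FPKM (SD, n = 3, log2 fold change 0.0053, limma adjusted p = 0.982). Scx, a tendon transcription factor, had 13.2 ± 0.551 and 11.5 ± 0.433 FPKM (log2 fold change -0.18, limma adjusted p = 0.0725). Pdgfra, a growth factor receptor of fibroblasts, had a log2 fold change of 0.17 (limma adjusted p = 0.0618, and 0.028 without control replicate 1). The part of these changes in the value of Pycr1 was not tested. Of 10 sensory neuron markers 7 were in the table, and their summed level was 24.7 to 28.1 FPKM in the controls and 19.1 to 21.4 FPKM with conditioned medium, nearly all of it Tubb3 and Uchl1. Tubb3 fell by 0.43 on the log2 scale (limma adjusted p = 0.00182) and passed in all 15 alternatives, and Uchl1 had a log2 fold change of 0.0016 (limma adjusted p = 0.997). Of 6 glial markers the summed level was 3.29 to 3.96 and 2.14 to 3.39 FPKM, with Sox10 at 0 in 5 libraries. Most of this sum was S100b, with 2.42 ± 0.173 and 1.50 ± 0.522 FPKM (SD, n = 3, log2 fold change -0.47, limma adjusted p = 0.102). S100b passed without conditioned replicate 3 (0.00971). Of 6 leukocyte markers the summed level was 3.63 to 5.09 and 3.21 to 4.14 FPKM, with Ptprc at no more than 0.0093 FPKM. Most of this sum was Lyz2 and Cd68. Lyz2 had 2.68 ± 0.457 and 1.79 ± 0.301 FPKM (log2 fold change -0.40, limma adjusted p = 0.0834, and 0.0478 with the replicate block). Cd68 had 1.39 ± 0.317 and 1.62 ± 0.186 FPKM (log2 fold change 0.14, limma adjusted p = 0.554). Of 4 endothelial markers the summed level was 5.73 to 6.52 and 4.37 to 4.86 FPKM, most of it Tek. The other endothelial markers were near the limit of detection in control and conditioned medium. Mean levels were 0.153 and 0.137 FPKM for Kdr, 0.0672 and 0.0195 FPKM for Pecam1, and 0.0288 and 0.0185 FPKM for Cdh5. Tek fell by 0.33 on the log2 scale (limma adjusted p = 0.0234). Among fits without 1 library, that call was kept only without control replicate 3 (0.0304), with adjusted p of 0.0603 to 0.0838 in the rest. Of 4 muscle markers, 1 was in the table (Acta1, 38.3 to 42.1 FPKM). The part of such cells in the values of the members was not tested, and in bulk RNA fewer cells of a type and less RNA per cell cannot be told apart.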

How the data were processed

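The 6 libraries were grouped by the labels (3 control, 3 conditioned), which name no batch. Per the file headers, the authors deposited FPKM values. CASAVA, HISAT2 2.0.5 and mm10 are listed in the submitters' processing notes with no role. The counting program, strand setting and filters were not given in the sources used here. Members and lists were chosen with earlier results of these data known.

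The log2 of FPKM + 1 was fitted with limma 3.58.1 (R 4.3.3, mean-variance trend, robust prior, two-sided, no covariate) for the 11678 genes averaging 1 FPKM or more. Benjamini-Hochberg adjustment ran over all of these, and calls are at 0.05. This scale understates fold changes of low genes. FPKM values of a gene were whole multiples of 1 fragment's worth for 24413 of 24413 genes (tolerance 0.01 fragment), which gave fragments for depth and voom. Fragments cover counting error only. Coordinates and exon overlaps came from GENCODE M21 (mm10), where 24394 gene IDs were found, and copies from blastn of its transcripts. All members are named, as are genes of other lists past the threshold, and others named for levels were chosen after their values were seen. The fits were tested on simulated data. Alternatives changed the pseudocount, filter, prior, scaling, block, fragment test and libraries. The promoter stretch of 1 further member is not reported here.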

Additional observations from a re-analysis of the deposited data

How the results depend on the processing

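Of the 28 tested members, 26 were not called in any of the 15 alternatives, 18 kept the sign of their fold change in all of them, and 10 changed sign in at least 1 without passing in any. All genes called numbered 763 in the reported fit, 492 with no low filter, 390 with the replicate block and 1129 by voom on whole fragments, and 394 to 678 when 1 library was left out. Members called lower numbered 0 with no low filter and 0 with the replicate block, and 0 to 1 when 1 library was left out, with an adjusted p for Pycr1 of 0.0778 with no low filter and 0.0586 with the block at an unchanged fold change. Members called higher numbered 1 with the filter at 5 FPKM and 1 by voom (Cebpg), and 0 in each fit without 1 library. The median log2 fold change of the members was -0.013 after quantile normalization, which shifted the median of all genes from 0.01 to -0.01, and 0.006 (without control replicate 1) to 0.0468 (without control replicate 3) when 1 library was left out. Sharing of replicate numbers gave no sign of pairing: correlations of deviations between same-numbered libraries were -0.09, -0.01 and -0.05. Depth limits Stc2, Trib3 and Chac1, with at most 14, 37 and 72 fragments in a library.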
